A study of Saccharomyces cerevisiae with 32 samples.

Results

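The enzymes that carry glycolysis from glyceraldehyde 3-phosphate to pyruvate were followed in 8 natural isolates of budding yeast, Saccharomyces cerevisiae. They are encoded by 9 of the 6696 open reading frames counted, listed by systematic name as the enzymes of these steps, a list drawn up with earlier results of these data known: TDH1 (YJL052W), TDH2 (YJR009C), TDH3 (YGR192C), PGK1 (YCR012W), GPM1 (YKL152C), ENO1 (YGR254W), ENO2 (YHR174W), CDC19 (YAL038W) and PYK2 (YOR347C). The isolates carry the labels CQC, CMP and BAN, CPI, BTT and BPL, and BED and AMH. Each is labelled wild type and was grown in SC medium, so the isolate is the only difference that the labels give between groups, and growth stage at collection is not given in the sources used here. For each isolate there were 2 libraries of ribosome footprints, the mRNA fragments that ribosomes shield from RNase I, and 2 mRNA libraries made from total RNA with a strand-preserving kit (32 libraries). Both assays address how genetic background shapes transcript level and its use by ribosomes. Values are given for footprints, for mRNA, and for translation efficiency (TE), which divides footprints by mRNA.

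Lower glycolysis turns triose phosphate into pyruvate and is where the pathway gains its ATP. In yeast growing on glucose its enzymes are among the most abundant proteins, and transcription of their genes is driven by factors such as Gcr1 and Rap1. Several steps have isozymes, proteins from different genes that catalyse the same reaction, and yeast deploys them differently with carbon source and growth stage.

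Depth on open reading frames was 27621 to 4391002 reads per footprint library and 3703931 to 11570247 per mRNA library. The shallowest footprint libraries were those of BAN, with 63336 and 27621 reads. Mitochondrial open reading frames took 21.3% and 19.2% of mRNA reads in CQC, 11.8% and 11.9% in BAN, 11.9% and 11.4% in CMP, and 1.51% and 1.17% in AMH. All 9 genes passed the filter on low counts in both assays. How reads that match several genes were counted is not given in the sources used here, so the split of reads between TDH1, TDH2 and TDH3 and between ENO1 and ENO2, which are close copies, is uncertain, and its part in the isozyme ratios was not tested. Whether replicate libraries came from separate cultures is not stated in the labels; p-values here reflect only how far these samples differ, and that part may be technical.

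Together the 9 genes took a share of all reads that differed widely between isolates and was lowest in CQC in both assays. They held 17.3% and 18.5% of footprint reads in the BED libraries, 15.0% and 15.4% in AMH, 14.2% and 14.9% in BPL and 13.6% and 13.5% in CPI. They held 10.9% and 12.8% in BTT, 7.46% and 6.83% in BAN, 4.53% and 5.49% in CMP, and 1.12% and 0.762% in CQC. Of mRNA reads they held 5.73% and 5.70% in AMH, 5.52% and 5.59% in BED, 3.40% and 3.58% in BPL, 3.13% and 2.94% in CPI and 2.59% and 3.05% in BTT, and then 1.10% and 1.31% in CMP, 0.722% and 0.610% in BAN, and 0.0472% and 0.0579% in CQC. AMH and BED led in both assays, BAN and CMP were low, and CQC stood below every other library. These are bulk cultures, so fewer cells that express a gene and less RNA per cell cannot be told apart.

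**Figure D1:**
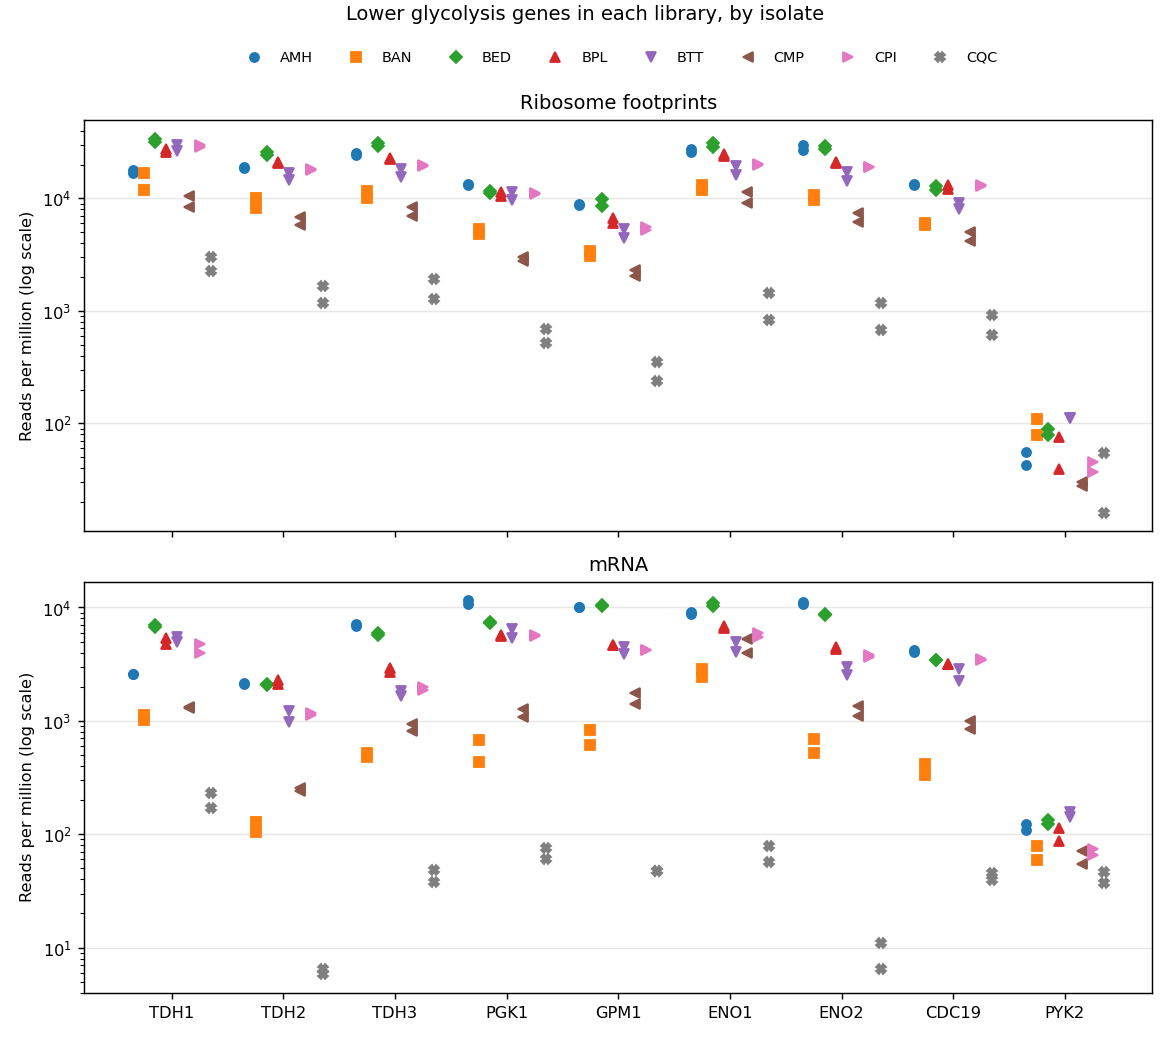
CPM (log axis) of the 9 genes in every footprint library (top) and every mRNA library (bottom), with 1 point per library and 1 colour and marker per isolate. Both CQC libraries lie below the 14 others for 8 genes in footprints and for all 9 in mRNA, and PYK2 is the lowest of the 9 genes in every isolate in footprints and in every isolate but CQC in mRNA, where BAN has it nearest to the next gene.

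In a test over all 8 isolates, 9 of 9 genes differed in footprints, where 73.3% of 5347 genes tested were called. In mRNA 9 of 9 differed, where 95.7% of 6269 genes were called. In TE 7 of 9 differed, where 29.0% of 5337 genes were called; TDH1 (adjusted p = 0.161) and PYK2 (adjusted p = 0.287) did not pass. All such tests are quasi-likelihood tests in edgeR, and adjusted p-values are Benjamini-Hochberg values over all genes, called at 0.05. The counts of called genes are close to the background in mRNA, where nearly every gene differed, so the size of the differences is the more informative measure. From the highest to the lowest isolate the fitted footprint level of the 9 genes spanned a median of 4.54 on the log2 scale (2.19 over all genes), the mRNA level 7.19 (2.05 over all genes), and TE 2.49 (1.70 over all genes). The mRNA span ran from 1.49 for PYK2 to 10.15 for ENO2.

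CQC had far less of these transcripts than any other isolate. In footprints, 8 of 9 genes fell in CQC against the mean of the other 7 isolates, where 24.0% of genes tested fell. In mRNA all 9 fell, where 37.5% of genes fell. The median over the 9 genes was -3.71 in footprints (-0.02 over all genes) and -5.60 in mRNA (0.01 over all genes), as log2 fold changes. PYK2, the minor pyruvate kinase, was the exception in footprints, with a log2 fold change of -0.86 ± 0.38 (SE, adjusted p = 0.064) from 4 and 15 reads in the CQC libraries. As a percentage of the other isolates' mean CPM, which scales counts to a fixed library total, the 8 other genes stood at 5.02% (ENO2) to 11.7% (TDH1) in CQC footprints and at 0.188% (ENO2) to 5.28% (TDH1) in CQC mRNA. The footprints of these 8 genes thus kept a narrower range than their mRNA did. Over every alternative processing tried, the 9 mRNA values and the 8 called footprint values stayed negative in CQC, with a highest adjusted p of 0.00088, for PYK2 mRNA. One alternative left out the mitochondrial reading frames, whose share of mRNA reads was largest in CQC.

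**Figure D2:**
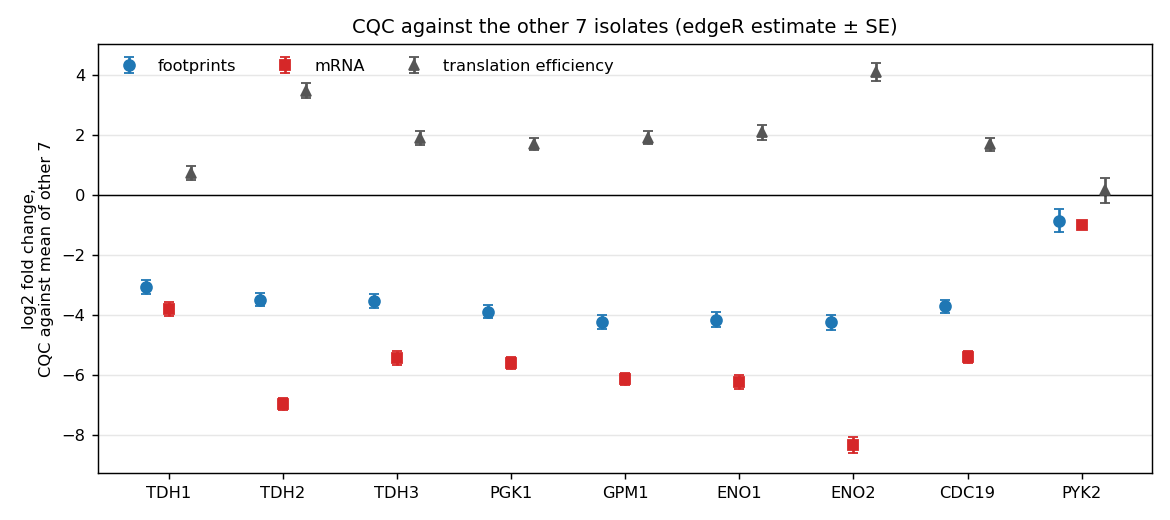
Log2 fold change in CQC against the mean of the other 7 isolates for each gene, as edgeR estimate with SE bars, for footprints, mRNA and translation efficiency. Footprint values lie above mRNA values for all 9 genes, and translation efficiency is highest for ENO2 (4.09) and TDH2 (3.48).

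Glyceraldehyde-3-phosphate dehydrogenase, which oxidises the triose and makes NADH, is encoded by TDH1 (chromosome X, bases 338271 to 339269), TDH2 (chromosome X, bases 453683 to 454681) and TDH3 (chromosome VII, bases 882812 to 883810), in the R64 assembly that sacCer3 denotes. TDH3 is known as the main form in cells growing on glucose and TDH1 as the form of slowly growing and stationary cells. Here TDH1 was the least variable of the 3 and TDH2 the most variable in mRNA. TDH3 footprints reached 29169 and 31010.1 in BED, 24406 and 25225 in AMH, 22298 and 22799 in BPL, and 19467 and 19717 in CPI (CPM, both libraries). The TDH3 footprints of the other 4 isolates came to 15497 and 18086 in BTT, 11731 and 10137 in BAN, 6951 and 8366 in CMP, and 1916 and 1263 in CQC, in the same unit. BED and AMH were highest and CQC lowest, and no neighbouring isolates in the order overlapped. TDH3 mRNA reached 6883 and 7142 in AMH, 5966 and 5732 in BED, 2688 and 2953 in BPL, and 1978 and 1859 in CPI (CPM, both libraries). The TDH3 mRNA of the other 4 isolates came to 1649.8 and 1838 in BTT, 942 and 815 in CMP, 482 and 517 in BAN, and 37.5 and 48.2 in CQC, in the same unit. In mRNA, AMH and then BED led, both CMP and both BAN libraries lay below every library of the 5 isolates above them, and CQC was lowest, again with no overlap between neighbours.

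For TDH3 the log2 fold change in CQC was -3.54 ± 0.23 in footprints (SE, adjusted p = 4.53e-13) and -5.44 ± 0.23 in mRNA (adjusted p = 3.79e-11). TDH2 footprints reached 24136 and 25642 in BED, 20771 and 21063 in BPL, 18522 and 19194 in AMH, and 18057 and 18132 in CPI (CPM, both libraries). The TDH2 footprints of the other 4 isolates came to 14454 and 16912 in BTT, 10010.1 and 8255 in BAN, 5793 and 6873 in CMP, and 1651 and 1172 in CQC, in the same unit. Footprints of TDH2 followed the same order as those of TDH3 but for BPL, which ranked above AMH. TDH2 mRNA reached 2105 and 2297 in BPL, 2143 and 2125 in AMH, 2104 and 2079.8 in BED, and 1182 and 1126 in CPI (CPM, both libraries). The TDH2 mRNA of the other 4 isolates came to 971 and 1219 in BTT, 253 and 239 in CMP, 129 and 104 in BAN, and 6.42 and 5.82 in CQC, in the same unit. BPL and AMH overlapped at the top of TDH2 mRNA and BED came next, and CQC held 45 and 36 reads, or 6.42 CPM (exact Poisson 95% interval 4.69 to 8.60) and 5.82 CPM (4.08 to 8.06). Such intervals cover counting error only. The TDH2 log2 fold change in CQC was -3.49 ± 0.22 in footprints (SE, adjusted p = 3.73e-13) and -6.97 ± 0.19 in mRNA (adjusted p = 7.66e-13).

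TDH1 footprints reached 31788 and 33829.5 in BED, 29929 and 28489 in CPI, 26127 and 30092 in BTT, and 26066 and 27374 in BPL (CPM, both libraries). The TDH1 footprints of the other 4 isolates came to 18047 and 16846 in AMH, 16784 and 11766 in BAN, 8315 and 10470.0 in CMP, and 3032 and 2257 in CQC, in the same unit. BED led, and AMH, which was among the highest for TDH2 and TDH3, stood below BED, CPI, BTT and BPL. TDH1 mRNA reached 6987 and 6731 in BED, 4968 and 5463 in BTT, 4793 and 5395 in BPL, and 4765 and 3972 in CPI (CPM, both libraries). The TDH1 mRNA of the other 4 isolates came to 2594 and 2594 in AMH, 1309 and 1320.4 in CMP, 1019 and 1116 in BAN, and 170.2 and 229.7 in CQC, in the same unit. AMH again stood below those 4 isolates and above CMP, BAN and CQC. TDH1 was the one gene that did not differ in AMH from the other 7 isolates in both assays among the 8 abundant genes, with a log2 fold change of 0.30 ± 0.17 in footprints (adjusted p = 0.185) and 0.25 ± 0.16 in mRNA (adjusted p = 0.189). In CQC its fold change was -3.07 ± 0.23 in footprints (adjusted p = 6.56e-12) and -3.80 ± 0.22 in mRNA (adjusted p = 1.1e-09). With reads of the 3 TDH genes summed, which leaves out how reads were split among the 3 copies, the CQC total fell by 3.33 in footprints and fell by 4.52 in mRNA on the log2 scale.

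Within a library, the isozyme ratio compares the copies per coding length. The ratio of TDH1 to TDH3 in footprints was 1.58 and 1.79 in the CQC libraries, 1.69 and 1.66 in BTT, 1.09 and 1.09 in BED and 0.739 and 0.668 in AMH. In mRNA the same ratio was 4.53 and 4.76 in CQC, 3.01 and 2.97 in BTT, 1.17 and 1.17 in BED and 0.377 and 0.363 in AMH. CQC and BTT thus carried the most TDH1 for their TDH3, and AMH was the one isolate with less TDH1 than TDH3. The TDH2 to TDH3 ratio stayed between 0.760 (AMH) and 0.934 (BTT) in footprints as isolate means, but in mRNA it ran from 0.145 in CQC to 0.780 in BPL. TDH2 to TDH3 was higher in footprints than in mRNA in 8 of 8 isolates, by a mean of 1.25 ± 0.77 (log2, SD over isolates). This passed an exact two-sided sign-flip permutation test over the 8 isolates at p = 0.00781, the smallest value it can give (adjusted over the 4 isozyme pairs, 0.0156). For TDH1 to TDH3 the mean difference between footprints and mRNA was -0.46 ± 0.69, which did not pass the same exact test (p = 0.109, adjusted p = 0.109), although the ratio was closer to 1 in footprints in 8 of 8 isolates.

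**Figure D3:**
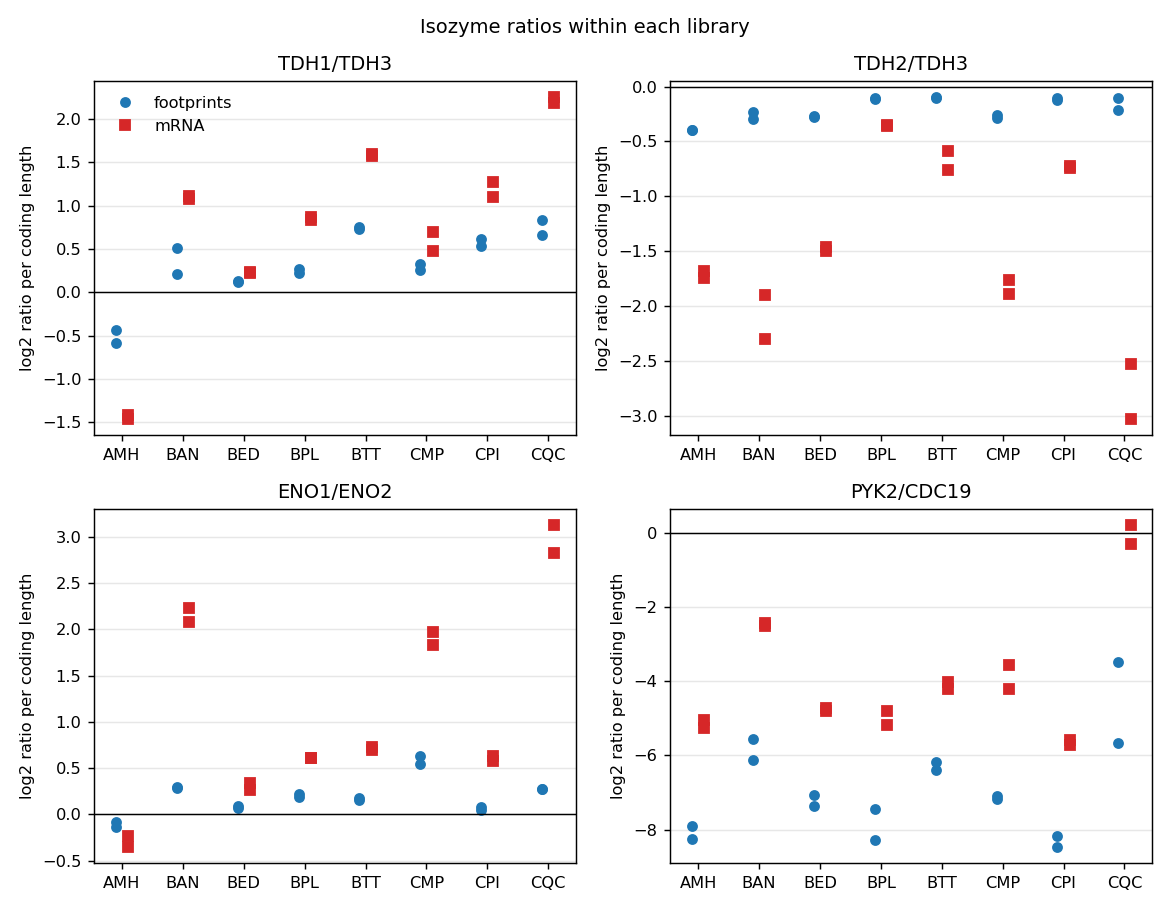
Log2 ratio of isozyme levels per coding length in each library, footprints left of mRNA for each isolate, with 1 point per library. For TDH1/TDH3, TDH2/TDH3 and ENO1/ENO2 the isolate means lie closer to 0 (equal levels) in footprints than in mRNA in all 8 isolates, and PYK2/CDC19 lies lower in footprints in all 8.

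Phosphoglycerate kinase, PGK1 (chromosome III, bases 137746 to 138996), makes the first ATP of the pathway and has no isozyme in yeast, so its counts carry no question of a split between copies. Its level was highest in AMH and lowest in CQC in both assays. PGK1 footprints reached 13498 and 13222 in AMH, 11171 and 11752 in BED, 11228 and 11055 in CPI, and 10514 and 11482 in BPL (CPM, both libraries). The PGK1 footprints of the other 4 isolates came to 9723 and 11294 in BTT, 5337 and 4851 in BAN, 2804 and 2996 in CMP, and 687 and 515 in CQC, in the same unit. The BED, BPL, BTT and CPI libraries lay between 9723 and 11752 CPM, and their neighbours in the order overlapped. PGK1 mRNA reached 11548 and 10712 in AMH, 7359.9 and 7466 in BED, 5395 and 6507 in BTT, and 5772 and 5642 in CPI (CPM, both libraries). The PGK1 mRNA of the other 4 isolates came to 5566 and 5748 in BPL, 1083 and 1265 in CMP, 676 and 431 in BAN, and 60.5 and 76.2 in CQC, in the same unit. In mRNA the order below AMH was BED, then BTT, CPI and BPL with overlapping values, then CMP, BAN and CQC. In CQC PGK1 averaged 601 ± 121 footprint CPM, against a mean of 9352 over the other isolates, a log2 fold change of -3.90 ± 0.22 (SE, adjusted p = 2.05e-14). Its CQC mRNA averaged 68.4 ± 11.1 CPM (SD, n = 2 libraries), against 5369, a log2 fold change of -5.60 ± 0.19 (adjusted p = 5.79e-12).

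Phosphoglycerate mutase, GPM1 (chromosome XI, bases 163642 to 164385), moves the phosphate group on phosphoglycerate ahead of the enolase step. BED and AMH were the high isolates for GPM1 in both assays. GPM1 footprints reached 8597 and 9877 in BED, 8737 and 8897 in AMH, 6074 and 6698 in BPL, and 5221 and 5576 in CPI (CPM, both libraries). The GPM1 footprints of the other 4 isolates came to 4452 and 5324 in BTT, 3047 and 3439 in BAN, 2025 and 2304 in CMP, and 349 and 239.5 in CQC, in the same unit. BED overlapped AMH and CPI overlapped BTT, and all other neighbours were separate. GPM1 mRNA reached 10269 and 10445 in BED, 10140.3 and 10183 in AMH, 4709 and 4714 in BPL, and 4239.8 and 4191 in CPI (CPM, both libraries). The GPM1 mRNA of the other 4 isolates came to 3858 and 4504 in BTT, 1401 and 1765 in CMP, 836 and 618 in BAN, and 47.2 and 47.1 in CQC, in the same unit. In GPM1 mRNA only CPI and BTT overlapped, and both CQC libraries lay far below the rest. The log2 fold change in CQC was -4.23 ± 0.23 in footprints (SE, adjusted p = 1.34e-14) and -6.14 ± 0.19 in mRNA (adjusted p = 2.28e-12). Per kilobase of coding sequence (RPKM), GPM1 mRNA was the most abundant of the 9 in AMH, BED, BPL, BTT and CPI, while ENO1 led in BAN and CMP and TDH1 in CQC. GPM1 footprints never led: TDH1 was the most abundant in footprint RPKM in 7 isolates and TDH3 in AMH.

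Enolase, which makes phosphoenolpyruvate, is encoded by ENO1 (chromosome VII, bases 1000927 to 1002240) and ENO2 (chromosome VIII, bases 451327 to 452640). ENO2 is known as the glucose-induced form, and ENO1 as the less regulated one. ENO2 mRNA was the most variable of the 9 transcripts. ENO2 footprints reached 27177 and 29974 in AMH, 27338 and 29238 in BED, 20645 and 21283 in BPL, and 19081 and 19029 in CPI (CPM, both libraries). The ENO2 footprints of the other 4 isolates came to 14182 and 17248 in BTT, 9710.1 and 10716 in BAN, 6186 and 7384 in CMP, and 1181 and 679 in CQC, in the same unit. AMH and BED were highest and overlapped, and CQC was lowest. ENO2 mRNA reached 10736 and 11175 in AMH, 8623 and 8757 in BED, 4298 and 4520.5 in BPL, and 3822 and 3676 in CPI (CPM, both libraries). The ENO2 mRNA of the other 4 isolates came to 2517 and 2979 in BTT, 1111 and 1357 in CMP, 686 and 515 in BAN, and 6.42 and 11.0 in CQC, in the same unit. The 8 isolates were all separate in ENO2 mRNA, in the order AMH, BED, BPL, CPI, BTT, CMP, BAN and CQC, and the AMH mean was 1257 times the CQC mean. The CQC mRNA values rest on 45 and 68 reads, with exact Poisson 95% intervals of 4.69 to 8.60 CPM and 8.54 to 13.9 CPM, while CQC footprints of ENO2 held 294 and 187 reads. Its log2 fold change in CQC was -4.25 ± 0.25 in footprints (SE, adjusted p = 6.88e-14) and -8.35 ± 0.27 in mRNA (adjusted p = 3.23e-12).

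ENO1 footprints reached 28646 and 31038 in BED, 25711 and 27302 in AMH, 23600.5 and 24894 in BPL, and 20166 and 19667 in CPI (CPM, both libraries). The ENO1 footprints of the other 4 isolates came to 15994 and 19256 in BTT, 11873 and 13215 in BAN, 9045 and 11412 in CMP, and 1434 and 824 in CQC, in the same unit. ENO1 footprints were highest in BED and lowest in CQC, with no overlap between neighbouring isolates. ENO1 mRNA reached 10369 and 11063 in BED, 9109 and 8767 in AMH, 6568 and 6887 in BPL, and 5932 and 5465 in CPI (CPM, both libraries). The ENO1 mRNA of the other 4 isolates came to 3961 and 5312 in CMP, 4083 and 4952 in BTT, 2891 and 2412 in BAN, and 56.8 and 78.6 in CQC, in the same unit. CMP, which was low for the other abundant genes, had as much ENO1 mRNA as BTT, and the 2 isolates overlapped. The ENO1 log2 fold change in CQC was -4.15 ± 0.25 in footprints (SE, adjusted p = 1.07e-13) and -6.24 ± 0.25 in mRNA (adjusted p = 2.28e-11). In BAN ENO1 did not pass the test in either assay, at -0.44 ± 0.19 in footprints (adjusted p = 0.254) and -0.08 ± 0.16 in mRNA (adjusted p = 0.656). The log2 mean it was set against includes the very low CQC. In plain CPM, BAN ENO1 mRNA was 44.9% of the mean of the other isolates. The enolase total in BAN mRNA was -0.46 with CQC (adjusted p = 0.0217) and -1.45 without it (adjusted p = 3.83e-06). With ENO1 and ENO2 summed, the CQC total fell by 4.20 in footprints and fell by 6.75 in mRNA on the log2 scale.

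The ENO1 to ENO2 ratio in footprints was 1.21 and 1.21 in CQC, 1.22 and 1.23 in BAN, 1.46 and 1.55 in CMP and 0.946 and 0.911 in AMH. In mRNA it was 8.76 and 7.10 in CQC, 4.22 and 4.68 in BAN, 3.56 and 3.92 in CMP and 0.849 and 0.785 in AMH. The 3 isolates with the lowest total enolase mRNA thus had several times more ENO1 than ENO2 mRNA, whereas their footprint ratios were all closer to 1. Between footprints and mRNA the mean difference of the log2 ratio was -0.92 ± 0.96 (SD over 8 isolates), lower in footprints in 7 of 8, and AMH was the exception. An exact two-sided sign-flip permutation test gave p = 0.0156 (adjusted p = 0.0208; the smallest p possible is 0.00781). Among isolates, all 4 isozyme ratios differed in both assays by a permutation test over the 16 libraries of an assay (8 tests, p from 1e-05, the smallest 100000 resamples can give, to 0.00057; adjusted p at most 0.00057).

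Pyruvate kinase, which makes pyruvate and the last ATP of the pathway, is encoded by CDC19 (chromosome I, bases 71786 to 73288), the main form, and PYK2 (chromosome XV, bases 984942 to 986462), a glucose-repressed form used when glycolytic flux is low. CDC19 varied between isolates about as widely as the other abundant genes, and PYK2 varied less. CDC19 footprints reached 13395 and 13156 in AMH, 12872 and 13078 in CPI, 12224 and 13031 in BPL, and 11902 and 12871 in BED (CPM, both libraries). The CDC19 footprints of the other 4 isolates came to 7984 and 9194 in BTT, 6016 and 5829 in BAN, 4140.1 and 5019.6 in CMP, and 912 and 613 in CQC, in the same unit. AMH, CPI, BPL and BED lay close together at the top for CDC19 footprints, BTT was below them, then came BAN, CMP and CQC. CDC19 mRNA reached 4018 and 4179 in AMH, 3536 and 3423 in CPI, 3416 and 3449 in BED, and 3150.1 and 3176 in BPL (CPM, both libraries). The CDC19 mRNA of the other 4 isolates came to 2269 and 2865 in BTT, 840.1 and 994 in CMP, 417 and 331 in BAN, and 39.8 and 45.1 in CQC, in the same unit. The same isolates led in mRNA, and BAN and CMP changed places. In CQC the CDC19 log2 fold change was -3.71 ± 0.22 in footprints (SE, adjusted p = 9.61e-14) and -5.40 ± 0.19 in mRNA (adjusted p = 6.5e-12).

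PYK2 footprints reached 111 and 111 in BTT, 78.9 and 109 in BAN, and 89.5 and 79.1 in BED (CPM, both libraries). The PYK2 footprints of the other 5 isolates came to 39.1 and 75.4 in BPL, 42.9 and 55.5 in AMH, 44.9 and 37.2 in CPI, 16.1 and 54.4 in CQC, and 27.6 and 30.1 in CMP, in the same unit. BTT was highest in PYK2 footprints, but 5 of 7 neighbouring isolates overlapped, and BAN, CMP and CQC held only 3 to 15 reads per library. PYK2 mRNA reached 142 and 157 in BTT, 123 and 133 in BED, 124 and 110.0 in AMH, and 87.4 and 114 in BPL (CPM, both libraries). The PYK2 mRNA of the other 4 isolates came to 74.0 and 65.8 in CPI, 78.5 and 58.9 in BAN, 71.8 and 54.3 in CMP, and 46.8 and 36.9 in CQC, in the same unit. BTT also led in PYK2 mRNA and CQC was lowest, with a 3.57-fold range of isolate means, against 96.5-fold for CDC19 mRNA. PYK2 mRNA fell in CQC by 1.01 on the log2 scale (SE 0.14, adjusted p = 7.92e-06). In BTT it was higher by 1.12 ± 0.19 in footprints (adjusted p = 3.61e-05) and by 0.68 ± 0.11 in mRNA (adjusted p = 0.000148). The PYK2 to CDC19 ratio was 0.0195 and 0.0903 in CQC footprints and 1.16 and 0.808 in CQC mRNA. In CPI, where the isolate mean was lowest, the ratio was 0.00347 and 0.00284 in footprints and 0.0207 and 0.0190 in mRNA. In CQC alone PYK2 mRNA stood near CDC19 mRNA, while its footprint ratio stayed far below 1 and rests on the 4 and 15 PYK2 reads. The ratio was lower in footprints than in mRNA in 8 of 8 isolates, by a mean log2 difference of -3.03 ± 0.72 (SD over isolates; exact two-sided sign-flip permutation p = 0.00781, adjusted p = 0.0156). With CDC19 and PYK2 summed, the CQC total fell by 3.66 in footprints and fell by 4.50 in mRNA on the log2 scale.

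AMH and BED were the isolates with the most lower glycolysis reads. In AMH, 7 of 9 genes rose in footprints (19.5% of all genes rose) and 8 of 9 in mRNA (33.2%). In BED, 9 of 9 rose in footprints (21.0%) and 9 of 9 in mRNA (33.6%). ENO2 in AMH had log2 fold changes of 1.66 ± 0.15 in footprints (SE, adjusted p = 3.63e-09) and 3.26 ± 0.12 in mRNA (adjusted p = 4.46e-11). In BED it had 1.72 ± 0.15 (adjusted p = 1.63e-09) and 2.75 ± 0.12 (adjusted p = 4.15e-10). Every such contrast uses a mean that includes CQC, so all were fitted again without CQC. The AMH and BED genes named as higher all remained higher then, and the ENO2 values became 1.14 and 2.11 in AMH and 1.09 and 1.59 in BED, for footprints and mRNA in turn.

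BPL, BTT and CPI stood above the mean of the other 7 for most genes, and in all comparisons but BPL footprints for fewer genes when CQC was left out. In BPL 8 of 9 genes rose in footprints (16.3% of genes) and 8 of 9 in mRNA (28.2%). Without CQC the BPL counts were 8 in footprints and 5 in mRNA, where TDH3, GPM1 and ENO1 no longer passed. In BTT 8 of 9 rose in footprints (20.5%) and 7 of 9 in mRNA (33.4%). Without CQC only 3 rose in each assay, TDH1, PGK1 and PYK2, and 3 genes fell in BTT mRNA. ENO2 mRNA in BTT was -0.46 without CQC (adjusted p = 0.0107) and 0.74 ± 0.14 with it, and GPM1 mRNA came to -0.03 (adjusted p = 0.888). The footprint count in BTT was 3 without the second BTT footprint library. In CPI 8 of 9 rose in footprints (18.5%) and 8 of 9 in mRNA (31.9%), and without CQC 4 and 5 did. CDC19 in CPI remained higher without CQC, at 0.70 in footprints (adjusted p = 0.000335) and 0.97 in mRNA (adjusted p = 2.37e-05), whereas TDH3 mRNA came to -0.09 (adjusted p = 0.627).

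BAN and CMP were the low isolates after CQC. In CMP 8 of 9 genes fell in footprints (7.63% of genes fell), with PYK2 at -1.39 ± 0.54 (SE, adjusted p = 0.0729), and 7 of 9 fell in mRNA (26.6%), or 4 without either the first CMP or the first BTT mRNA library. PGK1 in CMP had log2 fold changes of -1.46 ± 0.18 in footprints (adjusted p = 5.9e-07) and -0.93 ± 0.14 in mRNA (adjusted p = 5.6e-05). The 1 gene higher in CMP mRNA (26.9% of genes were) was ENO1, at 0.72 ± 0.15 (adjusted p = 0.000883), while ENO1 footprints fell by 0.69 (adjusted p = 0.0108). ENO1 in CMP was the single case among 72 combinations of gene and isolate in which footprints and mRNA were called in opposite directions. Its mRNA call was lost without the second CMP mRNA library, and without CQC its mRNA value was -0.18 (adjusted p = 0.304) and its footprint value -1.32 (adjusted p = 8.72e-07). The enolase total in CMP mRNA was 0.39 with CQC and -0.58 without it (adjusted p = 0.00457).

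In BAN 2 of 9 genes fell in footprints (0.954% of genes fell), TDH2 at -0.64 ± 0.18 (SE, adjusted p = 0.043) and PGK1 at -0.60 ± 0.17 (adjusted p = 0.0467). That count was 8 without CQC. It was 0 without the second footprint library of AMH, BAN, BED, BTT or CMP or without either one of BPL or CPI, 1 without the first BED library, 4 without the first CMP library, and 5 without the first BTT or the second CQC footprint library. In BAN mRNA 7 of 9 fell (34.0%), all but ENO1 and PYK2. PGK1 had the largest of these falls, at -2.09 ± 0.15 (adjusted p = 2.8e-08), and TDH2 the next, at -2.01 ± 0.13 (adjusted p = 9.2e-09). Without CQC these became -2.95 and -3.07. The BAN footprint libraries held 95 to 1063 reads on each of the 8 abundant genes.

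**Figure D4:**
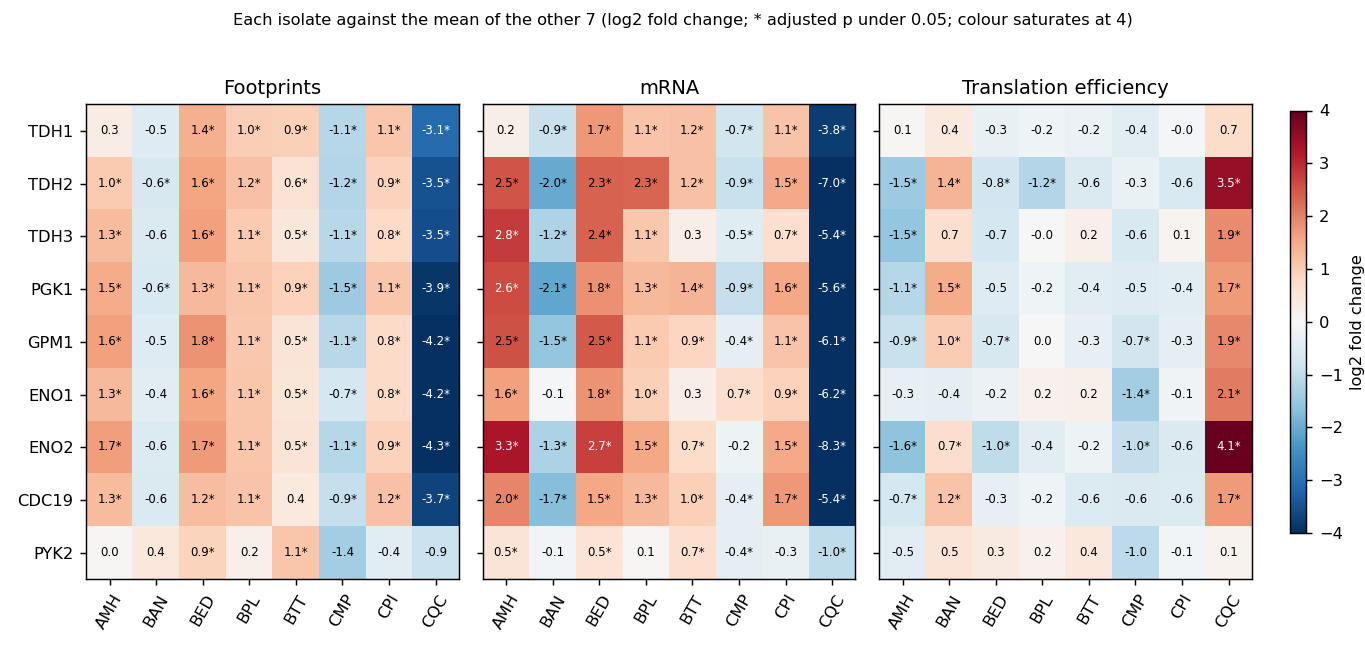
Log2 fold change of the 9 genes by isolate, relative to the mean over the 7 others, in footprints, mRNA and translation efficiency, with an asterisk where the adjusted p is under 0.05. CQC is strongly negative in footprints and mRNA for the 8 abundant genes and positive in translation efficiency, and AMH and BED are positive in both assays and negative in translation efficiency for most genes.

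TE moved against mRNA for most of the genes that passed. Of 72 combinations of gene and isolate, 25 passed in TE, 12 higher and 13 lower, and in 23 of these the TE change had the opposite sign to the mRNA change. Since TE is footprints over mRNA, the mRNA value enters both quantities. The same counts were not taken over all genes, so whether opposite signs are particular to these genes was not tested. In CQC 7 of 9 genes rose in TE (6.99% of all genes rose), with a median of 1.90 over the 9 (0.14 over all genes). ENO2 rose by 4.09 ± 0.29 (SE, adjusted p = 1.9e-10) and TDH2 by 3.48 ± 0.24 (adjusted p = 1.9e-10), above the 1.69 to 2.08 of TDH3, PGK1, GPM1, ENO1 and CDC19. TDH1 at 0.73 ± 0.25 (adjusted p = 0.0591) and PYK2 at 0.15 ± 0.42 (adjusted p = 0.892) did not pass. The summed counts rose in CQC TE too, by 1.18 for TDH1 to TDH3, 2.54 for ENO1 and ENO2, and 0.84 for CDC19 and PYK2. Outside CQC they passed only for TDH and enolase in AMH (-0.81 and -0.77), pyruvate kinase in BAN (1.11) and enolase in CMP (-1.28). Neither AMH sum passed without CQC (adjusted p = 0.0944 and 0.302). The TDH sum did not pass in BAN (0.64), BED (-0.39) or BPL (-0.15), where TDH2 did. The enolase sum did not pass in BAN (-0.03) or BED (-0.44), where ENO2 did. The pyruvate kinase sum did not pass in AMH (-0.53), where CDC19 did.

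As a plain ratio of CPM, ENO2 TE was 106 in CQC, 17.2 in BAN, 5.50 in CMP, 5.08 in CPI, 5.71 in BTT, 4.76 in BPL, 3.25 in BED and 2.61 in AMH. TDH2 TE was 227 in CQC and 78.2 in BAN, and between 8.84 (AMH) and 25.6 (CMP) in the other 6. PGK1, the gene with no isozyme, had 9.42 in BAN and 8.76 in CQC, and 1.20 to 2.48 in the other 6. CQC and BAN, the lowest in mRNA for each of the 8 abundant genes, had the highest of these plain ratios for all 8. CMP, the next lowest for most, had the lowest ENO1 ratio of any isolate (2.21). Such ratios scale by library totals, which against the edgeR fit moved the TE median of all genes in BAN by 0.56. In the edgeR fit, log2 TE of ENO1 against the other isolates was -0.35 ± 0.25 (SE) in BAN, and only CMP was lower (-1.40). The PGK1 order also turned in that fit, with 1.49 in BAN and 1.70 in CQC. Among genes, the median plain ratio over isolates was highest for TDH2 (15.0) and lowest for GPM1 (1.32) and PYK2 (0.622).

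In AMH 6 of 9 genes fell in TE (6.28% of genes fell), among them ENO2 at -1.59 ± 0.24 (SE, adjusted p = 6.59e-05) and TDH3 at -1.54 ± 0.23 (adjusted p = 6.38e-05). Without CQC, 4 of these 6 still passed, and GPM1 (adjusted p = 0.0509) and CDC19 (adjusted p = 0.191) did not. In BAN 5 of 9 rose (7.33%), led by PGK1 at 1.49 ± 0.20 (adjusted p = 6.79e-06), and all 5 rose without CQC. In BED 3 of 9 fell (2.87%), ENO2, TDH2 and GPM1, and none passed without CQC (adjusted p 0.144 to 0.412), nor with either BED footprint library or the second BED mRNA library left out; 1 passed without the first BED or the first BTT mRNA library. In BPL 1 of 9 fell (3.3%), TDH2 at -1.16 ± 0.20 (adjusted p = 0.000752). In CMP 3 of 9 fell (1.85%), and 1 without CQC, which was ENO1 at -1.14 (adjusted p = 0.00058); 1 also passed without the second CMP mRNA library or without either CMP footprint library. In BTT and CPI edgeR, fitted with no replicate block as for all TE values here, called 0 of the 9 genes in TE. At an unadjusted p under 0.05 there were 3 lower in BTT and 4 lower in CPI, and DESeq2 called 2 lower in each.

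Over all 8 isolates, CQC included, the isolates differed less in footprints than in mRNA for 8 of the 9 genes. Between-isolate SDs of log2 CPM, taken from the covariance between replicates, which limits the part of counting noise, were 1.64 in footprints and 3.31 in mRNA for ENO2. For TDH2 they were 1.37 and 2.95, for PGK1 1.54 and 2.51, and for PYK2 0.638 and 0.604. The ratio of the footprint SD to the mRNA SD was 0.464 for TDH2, 0.496 for ENO2, 0.586 for TDH3, 0.611 for CDC19, 0.613 for PGK1, 0.630 for GPM1, 0.655 for ENO1, 0.713 for TDH1 and 1.06 for PYK2. PGK1 and GPM1, which have no close copy, sat in the middle of this range. The median ratio was 0.909 over the 4387 genes with a positive ratio. Over the 1338 of these with a mean of at least 100 footprint reads it was 0.782, with 73.7% of them below 1. Genes without a positive covariance between replicates in footprints or in mRNA were left out, which can raise these medians. A ratio below 1 is therefore common among well-covered genes, and these ratios are given as a description with no test. CQC lies far below the other isolates for the 8 abundant genes and enters every SD, and the SDs were not computed without it. They also scale by library totals. Against the edgeR fit this scaling moved the median of all genes in BAN by -0.25 in mRNA and 0.31 in footprints. Its part in the ratios was not tested.

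**Figure D5:**
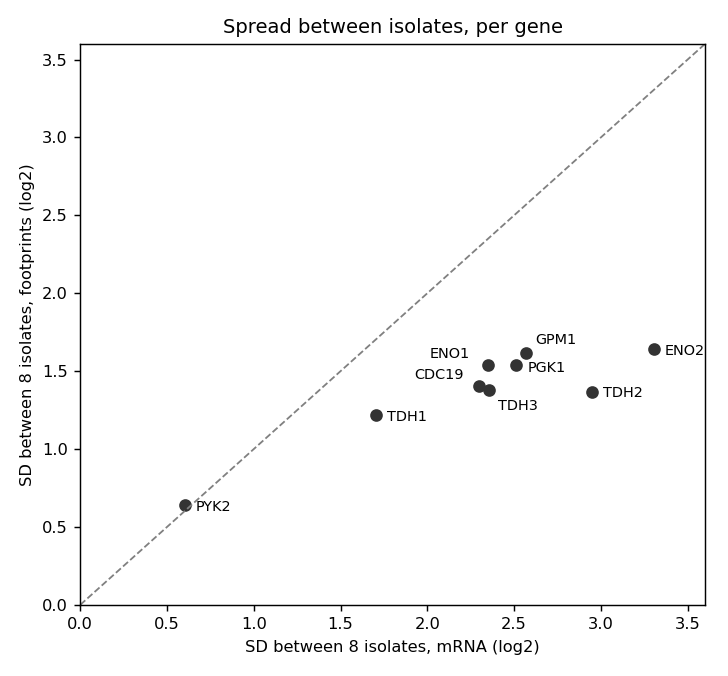
Between-isolate SD of log2 CPM in footprints (vertical) and mRNA (horizontal), 1 point per gene over 8 isolates; the dashed line marks equal spread. The 8 abundant genes lie below the line, with ENO2 and TDH2 farthest right, and PYK2 lies just above it.

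Across the 8 isolates, the mRNA profiles of the 8 abundant genes were more like each other than like that of PYK2. Pearson's r of log2 CPM over the 8 isolate means lay between 0.896 and 0.994 for pairs of the 8 abundant genes, and between 0.753 and 0.857 for PYK2 with any of them. Among 3482 other genes with a mean of at least 50 mRNA CPM, the profile most like that of TDH3, GPM1 and ENO2 was that of TPI1, triose phosphate isomerase, which acts just above the TDH step (r = 0.993, 0.997 and 0.995). PMA1, the plasma membrane proton pump, was nearest to PGK1 (r = 0.996), PDC1, the main pyruvate decarboxylase, to ENO1 (r = 0.980), and TUB2, beta-tubulin, to CDC19 (r = 0.988). ABP1, an actin-binding protein, was nearest to TDH1 (r = 0.990), DIC1, a mitochondrial dicarboxylate carrier, to TDH2 (r = 0.990), and PAT1, an mRNA decapping factor, to PYK2 (r = 0.961). The next 2 genes in likeness were PAA1 and RPP0 for TDH1, ASI3 and BFR1 for TDH2, YRB2 and HMF1 for TDH3. They were TUB2 and BFR1 for PGK1, BFR1 and PMA1 for GPM1, TMA7 and LTP1 for ENO1, and PDC1 and TPM2 for ENO2, BFR1 and PSA1 for CDC19, AIM6 and UTP20 for PYK2, with r between 0.954 and 0.993 throughout. All these values share the same 16 mRNA libraries and rest on 8 points, of which CQC lies far from the rest.

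Most genes of the steps above also fell in CQC, with smaller medians. Of 8 upper glycolysis genes, 7 fell in CQC footprints (24.0% of all genes fell) and 7 in CQC mRNA (37.5%), with medians of -2.34 and -2.47 (log2). The 4 with the widest mRNA range among isolates were TPI1 at -3.37 ± 0.21 in footprints (SE, adjusted p = 2.01e-13) and -4.35 ± 0.17 in mRNA (adjusted p = 2.5e-11), followed by HXK2, FBA1 and HXK1. HXK2, the main hexokinase on glucose, stood at -3.26 ± 0.23 and -3.32 ± 0.14. FBA1, aldolase, stood at -2.59 ± 0.19 and -3.32 ± 0.16. HXK1, the hexokinase of poorer carbon sources, stood at -1.90 ± 0.27 and -2.31 ± 0.29. PFK2, a phosphofructokinase subunit, was among the 4 widest in footprints and stood at -2.69 ± 0.20 and -2.53 ± 0.12. In AMH footprints 4 upper genes rose (19.5% of all genes rose) and 2 fell (14.5% of all genes fell). In AMH mRNA 6 rose (33.2%) and 2 fell (30.4%). HXK1 was lower in AMH, at -1.09 ± 0.24 in footprints and -1.51 ± 0.27 in mRNA, both passing the test.

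Gluconeogenesis runs the pathway in reverse past its one-way steps through PCK1, phosphoenolpyruvate carboxykinase, and FBP1, fructose bisphosphatase, both repressed by glucose. Both rose in CQC, in footprints (25.4% of genes rose) and in mRNA (35.2%). PCK1 was higher by 4.60 ± 0.16 in footprints and 4.12 ± 0.13 in mRNA, and FBP1 by 5.68 ± 0.19 and 4.42 ± 0.14 (log2 ± SE). In AMH both fell, PCK1 at -3.40 ± 0.37 in footprints and -3.96 ± 0.24 in mRNA. In BPL, where 8 of 9 lower glycolysis genes rose in each assay, PCK1 also rose, at 3.25 ± 0.16 in footprints and 3.46 ± 0.13 in mRNA, and FBP1 rose at 2.85 ± 0.23 and 2.82 ± 0.15. PCK1 mRNA stood at 4.44 ± 0.12 in CMP and 4.29 ± 0.13 in BAN, both above its CQC value, and fell in BTT (-5.12 ± 0.26), BED (-4.42 ± 0.25) and CPI (-2.79 ± 0.21). Of 10 genes that use pyruvate, 6 rose and 3 fell in CQC footprints, and 3 rose and 6 fell in CQC mRNA. Over all genes, 24.0% fell in CQC footprints and 37.5% in CQC mRNA. PDC1 fell with the lower glycolysis genes, at -3.95 ± 0.22 and -6.06 ± 0.20, and PDC5, its isozyme, at -3.76 ± 0.24 and -3.63 ± 0.22. PYC1, pyruvate carboxylase, which feeds gluconeogenesis, rose at 2.61 ± 0.14 and 2.72 ± 0.12, and PDC6, a minor decarboxylase, at 1.18 ± 0.18 and 3.72 ± 0.21.

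Of 6 regulators of glycolytic genes, 2 rose and 4 fell in CQC mRNA, and 1 rose and 1 fell in CQC footprints. Over all genes 35.2% rose and 37.5% fell in CQC mRNA and 25.4% rose and 24.0% fell in CQC footprints. GCR1, the main activator, fell in mRNA at -1.70 ± 0.22 (SE, adjusted p = 7.4e-06) and stood at -0.69 ± 0.65 in footprints (adjusted p = 0.408). GCR2, its partner, rose at 0.88 ± 0.33 in footprints (adjusted p = 0.0288) and 0.82 ± 0.09 in mRNA (adjusted p = 1.38e-06). ABF1, a general regulatory factor, fell at -1.13 ± 0.34 and -1.02 ± 0.11, both passing the test. TYE7, another activator, fell in mRNA at -0.89 ± 0.15 (adjusted p = 6.29e-05). Of 5 paralogues of the mutase and enolase, 4 rose and 1 fell in CQC footprints, and 3 rose and 2 fell in CQC mRNA. The 3 that rose in both were the enolase-related ERR1, ERR2 and ERR3, near-identical copies whose counts are uncertain, with ERR3 at 4.70 ± 0.17 and 4.34 ± 0.15. GPM2, a mutase homologue, fell with GPM1, at -2.02 ± 0.34 and -2.52 ± 0.26.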

How the data were processed

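Ribosome footprints and mRNA were measured in 2 libraries each of 8 isolates. The authors deposited unnormalized read counts, 1 table per library. CASAVA 1.8, STAR 2.7.0a and the build sacCer3 are named by the submitters' processing notes, and the counting tool is not given in the sources used here. Coding length came from the other deposited column, a length that was the codon number less 10 in 94.5% of 6008 annotated frames. The notes name 1 build for all isolates; the part of sequence differences between isolates was not tested.

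Counts were fitted with edgeR 4.0.16 in R 4.3.3 (filterByExpr with minimum count 10, TMM scaling within each assay, quasi-likelihood F-test, Benjamini-Hochberg adjustment over all genes), with TE as the interaction of assay and isolate over 32 libraries. DESeq2 1.42.0, other scalings, no filter, blocks on replicate number and leaving out libraries or isolates were alternatives. Isozyme ratios used counts plus 0.5 per coding length, with scipy 1.17.1. Replicate pairs differed by a chi-square per degree of freedom of 2.03 to 30.5, so no library was repeated. The script was tested on simulated counts. Each isolate was compared with the mean of the other 7 in log2. The 9 genes and the 5 lists of 31 related genes (all matched) were chosen with earlier results of these data known. Genes named from a list are those with the widest range among isolates, at most 4 per list; for likeness, the 3 with the highest r. Protein and promoter sequences were not used here.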

Additional observations from a re-analysis of the deposited data

Results flagged for a closer look

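For 25 combinations of gene and isolate the effect of the isolate differed between footprints and mRNA by the test of the difference itself, the TE interaction in edgeR's quasi-likelihood test (adjusted p under 0.05 over 5337 genes). All values are log2 TE of the isolate against the mean of the other 7. In CQC the TE of ENO2 was higher by 4.09, that of TDH2 by 3.48, ENO1 by 2.08, GPM1 by 1.91, TDH3 by 1.90, PGK1 by 1.70 and CDC19 by 1.69, the 7 genes with the largest mRNA falls there. In BAN the TE of PGK1 was higher by 1.49, TDH2 by 1.37, CDC19 by 1.15, GPM1 by 1.03 and ENO2 by 0.72; these rest on the 2 shallowest footprint libraries. In AMH TE came to -1.59 for ENO2, -1.54 for TDH3, -1.46 for TDH2, -1.14 for PGK1, -0.90 for GPM1 and -0.70 for CDC19. The mRNA of AMH was the highest of all isolates for all 6 of these genes in the edgeR fit, and for 4 of the 6 in plain CPM. BED had -1.03 for ENO2, -0.77 for TDH2 and -0.65 for GPM1, and BPL had -1.16 for TDH2. CMP had -1.40 for ENO1, -0.95 for ENO2 and -0.74 for GPM1. When CQC was left out, GPM1 and CDC19 in AMH, ENO2, TDH2 and GPM1 in BED, and ENO2 and GPM1 in CMP no longer passed. With isozyme counts summed, TE did not pass for TDH in BAN, BED and BPL or for enolase in BAN and BED.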

How the results depend on the processing

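The CQC counts stayed within 1.5 times of their values under every alternative, as did the counts of genes called over all isolates. The isozyme ratios were recomputed only with pseudocounts of 2 and 0.01 and with single libraries left out, and kept their direction and call. The spread ratios were recomputed only with a prior count of 0.5, and moved by less than the SD between their single-replicate values. Neither the isozyme nor the spread results were recomputed without CQC, and the spread ratios were not recomputed with another scaling. Of 1763 fold changes of single genes and step totals under other settings or without 1 isolate, 1687 kept direction and call. Of the rest 65 kept only direction and 11 reversed, all 11 without CQC. With single libraries left out 3523 of 3680 kept both and 157 kept direction only.

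Counts of the 9 genes that moved were as follows. With DESeq2 size factors, footprints had 5 higher in BTT and 0 lower in BAN, and mRNA had 1 lower in CPI. With library totals, TE had 8 lower in BED, 3 in BPL, 4 in BTT, 1 in CMP and 2 in CPI, and BAN footprints had 0 lower; this scaling moved the median of all genes by up to 0.56 (TE in BAN), and DESeq2 size factors by up to 0.16 (CQC footprints). With DESeq2, TE had 5 lower in BED, 2 in BTT, 5 in CMP and 2 in CPI, BAN footprints had 5 lower and CPI mRNA 1. With the 9 genes left out of the scaling, BAN footprints and CMP mRNA had 4 lower each. With no filter BAN footprints had 5 lower, and CPI mRNA had 1 lower without mitochondrial reading frames and without BAN. The causes were not tested.

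Without CQC, footprints had 3 higher in BTT, 4 higher in CPI and 8 lower in BAN. In mRNA there were then 5 higher in BPL, 3 higher and 3 lower in BTT, 0 higher in CMP, and 5 higher and 1 lower in CPI. TE had 0 lower in BED and 1 in CMP. Values that reversed without CQC were, in mRNA, GPM1 -0.027 and ENO2 -0.46 in BTT, ENO1 -0.18 and total enolase -0.58 in CMP, and TDH3 -0.093 in CPI. In BTT footprints they were TDH3 -0.041, GPM1 -0.075, ENO1 -0.11, ENO2 -0.082, total enolase -0.10 and total pyruvate kinase -0.12. By construction the mean of the others no longer holds the lowest isolate.

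With single libraries left out, counts ranged from 3 to 9 for higher in BTT footprints, 0 to 1 for higher and 4 to 7 for lower in CMP mRNA, 0 to 1 for lower in CPI mRNA and 0 to 5 for lower in BAN footprints. For lower in TE they ranged from 0 to 4 in BED, 1 to 4 in CMP, 0 to 1 in BTT and 0 to 1 in CPI.

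Replicate numbers were not taken to pair the samples, since not every pair's correlation was over 0.1. Deviations of same-numbered libraries correlated over 0.1 in 6 of 28 isolate pairs in mRNA and 5 of 28 in footprints, and, between assays of an isolate, in 7 of 8 (r 0.06 in BAN to 0.69 in CPI). With a replicate block within each assay BAN footprints had 0 lower and the CQC counts were 9 in mRNA and 8 in footprints. With a replicate block across assays, TE had 5 lower in BED, 2 in BTT and 3 in CPI.

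Sequence comparisons in windows of 28 and 50 bases were planned and not run. Depth was lowest in the BAN and CMP footprint libraries, and PYK2 footprints held only 3 to 15 reads per library in BAN, CMP and CQC, so these values are the least precise given.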
